A study of Mus musculus with 6 samples.

Results

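ABC transporters are membrane pumps and related proteins that share an ATP-binding cassette, and 17 of the 48 ABC genes read on the arrays differed between shPARP2 and scPARP2 C2C12 cells, with 10 lower and 7 higher in shPARP2 cells. C2C12 is a mouse myoblast line. The shPARP2 cells carry a lentiviral shRNA against PARP2 and the scPARP2 cells a scrambled shRNA, each as 1 line kept under puromycin, with 3 samples a line and 1 array per sample. The labels name no other treatment. With 1 line per condition, silencing of PARP2 and any other difference between the lines cannot be told apart. The genes were chosen by name, as Abc with a subfamily letter from a to g and a number, on probe sets annotated to a single gene, and each gene was read from its brightest probe set by the mean of the 6 arrays. This gave 48 of 19938 genes, with 16 in subfamily A, 9 in B, 10 in C, 3 in D, 1 in E, 3 in F and 6 in G. Family members under other symbols (Tap1, Tap2 and Cftr) were outside the naming rule.

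An ABC transporter binds ATP with a pair of nucleotide-binding domains, and in most members the hydrolysis of ATP moves a substrate across a membrane through the transmembrane domains. Subfamily A carries mainly lipids, B holds drug pumps and transporters of mitochondria and lysosomes, C exports conjugates and anions and includes the sulfonylurea receptors, D serves peroxisomes and lysosomes, and G carries sterols and drugs. Subfamilies E and F have no transmembrane domain and act on ribosomes. In skeletal muscle the family is best known for the sulfonylurea receptors of the ATP-sensitive potassium channel, for cholesterol export and for drug efflux.

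The labels and the signal of the arrays were checked first. Parp2, the silenced gene, read 7.86, 8.14 and 7.91 on the log2 scale in shPARP2 cells, against 8.94, 9.13 and 9.05 in scPARP2 cells. The difference, shPARP2 minus scPARP2, was -1.07 ± 0.10 in log2 units (SE, the standard error, limma adjusted p = 0.00103), and the lines did not overlap. The array medians lay between 7.04 and 7.18, and the SD of the ABC genes had a median of 0.119 in shPARP2 and 0.0647 in scPARP2 cells. Of 6 myoblast markers, 4 (Chrna1, Des, Cdh15 and Myf5) were higher in shPARP2 cells and 2 (Myod1 and Pax7) did not pass the test. Over all genes, 12.4% were higher. The mean log2 level of the 6 myoblast markers ran from 10.26 to 10.67 in shPARP2 and from 10.06 to 10.11 in scPARP2 cells. The mean of 6 macrophage and leukocyte markers ran from 6.23 to 6.38 in shPARP2 and from 6.47 to 6.49 in scPARP2 cells. Among these, Cd68, which lysosomes of many cells also carry, was lower (log2 fold change -0.72, adjusted p = 0.00119 from limma), while the other 5 did not pass the test. Ptprc, Csf1r, Itgam and Adgre1 lay between the 17.9th and the 29.5th percentile of all probe sets, and Cd14 was brighter, with means of 7.16 ± 0.19 in shPARP2 and 7.24 ± 0.03 in scPARP2 cells (SD, n = 3 each, 51.4th percentile). None of the 15 adipocyte, endothelial, epithelial and hepatocyte markers passed the test. The part of these marker differences in the results was not tested. In such bulk RNA, fewer cells of a kind and less RNA per cell cannot be told apart.

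A gene was called at a Benjamini-Hochberg adjusted p under 0.05 in limma, and the log2 fold change is shPARP2 minus scPARP2. The share called was 35.4% among the ABC genes, beside 24% among all genes. The 7 higher genes stand beside 12.4% of all genes, and the 10 lower genes beside 11.6%. The signals of the 2 lines did not overlap for 20 ABC genes (41.7%), beside 42.1% of all genes. In 9 of these all shPARP2 arrays lay above (20.7% of all genes), and in 11 below (21.4%). An unadjusted p under 0.05 was reached by 18 ABC genes (37.5%), beside 34.8% of all genes. The median log2 fold change was -0.03 over the ABC genes and -0.02 over all genes, with 21 ABC genes above 0 and 27 below, and the called genes lay in both directions. The change was at least 1.5-fold for 11 of the 17 called genes (22.9% of the family, beside 10.1% of all genes). It was at least 2-fold for 4 of the 48 ABC genes, the lower genes Abca8b, Abcc4, Abca8a and Abcd2. Over all genes, 697 of 19938 were called with such a change. Probe sets with a mean below the 40th percentile of all probe sets are named dim here. Of the 30 ABC genes above this level 14 were called (46.7%), beside 34.1% of all such genes. Of the 18 dim ABC genes 3 were called (16.7%), beside 3.34%. All 3 were lower, which itself lowers their means over the 6 arrays. Abca8a and Abca12 among them lay just under the cut (39.5th and 39.6th percentile). No source says whether the samples were separate cultures, and p-values therefore reflect only how far these samples spread, which may be technical.

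**Figure D1:**
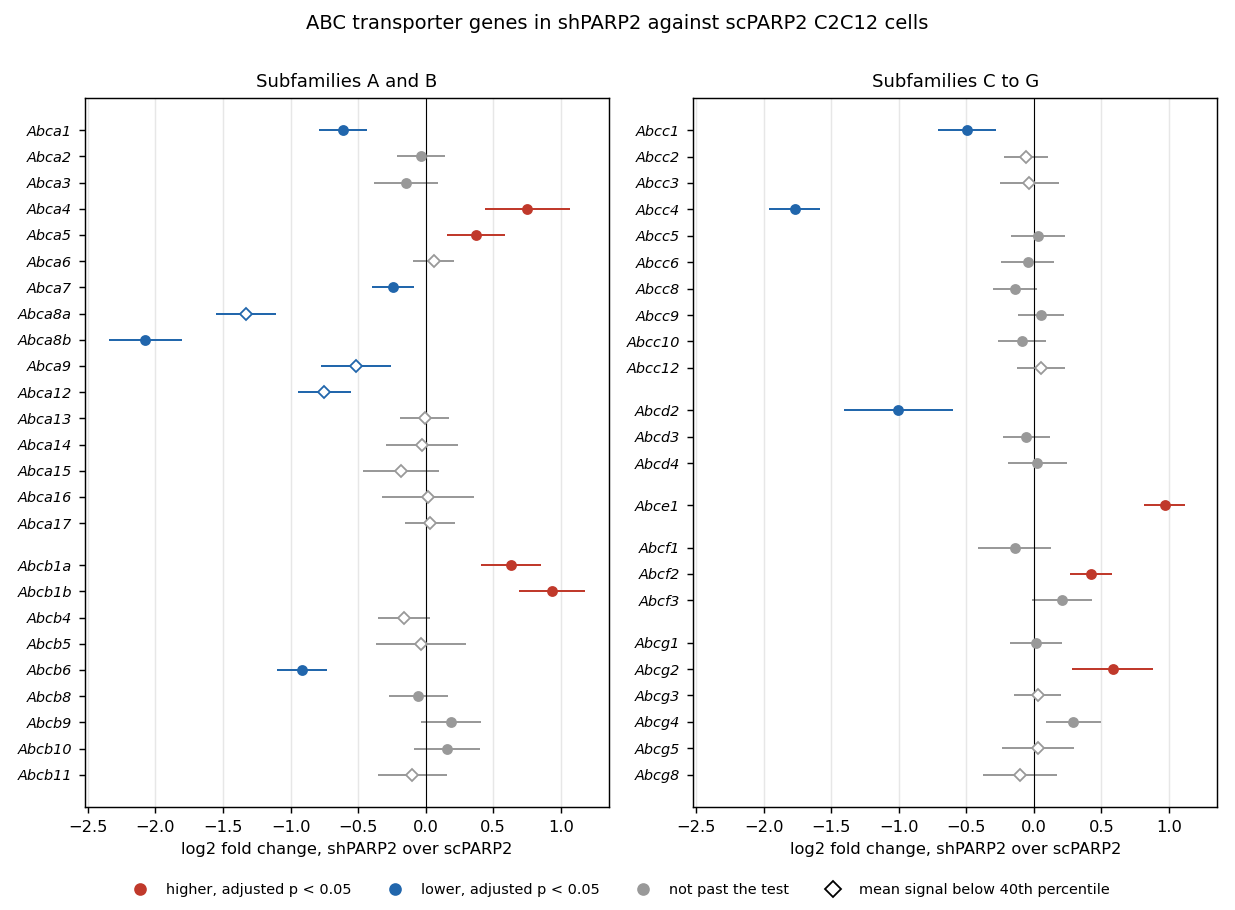
The 48 ABC genes by subfamily, each with its log2 fold change, shPARP2 minus scPARP2 (horizontal axis). Points are fitted differences of 3 arrays against 3, lines their 95% confidence intervals, red and blue the 7 higher and 10 lower genes at an adjusted p under 0.05, grey the 31 others, and open diamonds the 18 dim genes. Fitted changes run from -2.07 for Abca8b to 0.97 for Abce1.

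The promoters of 4 called genes are shown as examples. These are Abca8b and Abcc4 with the largest falls, and the neighbours Abcb1a and Abcb1b, which rose. They are RefSeq windows of GRCm38.p6 with 250 bases before and 50 after the annotated start, written 5′ to 3′ on the strand of the gene. Abca8b lies at chr11:109995796-109996095 (minus strand), Abcc4 at chr14:118706170-118706469 (minus strand), Abcb1a at chr5:8566841-8567140 (plus strand) and Abcb1b at chr5:8797897-8798196 (plus strand). Capitals mark matches to the core of the antioxidant response element, TGACNNNGC, and in Abcc4 also to the core of the aryl hydrocarbon receptor element, TNGCGTG, on either strand.
Abca8b: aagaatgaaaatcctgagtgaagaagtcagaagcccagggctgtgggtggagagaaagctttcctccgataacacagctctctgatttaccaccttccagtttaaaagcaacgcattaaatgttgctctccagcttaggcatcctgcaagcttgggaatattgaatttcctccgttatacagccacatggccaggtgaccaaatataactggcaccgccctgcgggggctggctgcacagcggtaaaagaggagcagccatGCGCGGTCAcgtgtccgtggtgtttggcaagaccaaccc
Abcc4: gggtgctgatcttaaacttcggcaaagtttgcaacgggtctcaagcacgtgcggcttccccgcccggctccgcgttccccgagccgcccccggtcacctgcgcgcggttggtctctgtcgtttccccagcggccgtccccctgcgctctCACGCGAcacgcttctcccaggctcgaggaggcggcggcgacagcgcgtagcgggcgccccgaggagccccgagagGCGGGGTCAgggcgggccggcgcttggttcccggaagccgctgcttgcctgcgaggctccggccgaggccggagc
Abcb1a: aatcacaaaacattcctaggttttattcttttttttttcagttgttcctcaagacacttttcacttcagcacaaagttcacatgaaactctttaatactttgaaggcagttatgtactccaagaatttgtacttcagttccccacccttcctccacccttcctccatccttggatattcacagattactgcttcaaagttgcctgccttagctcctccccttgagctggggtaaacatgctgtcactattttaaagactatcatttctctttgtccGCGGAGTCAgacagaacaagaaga
Abcb1b: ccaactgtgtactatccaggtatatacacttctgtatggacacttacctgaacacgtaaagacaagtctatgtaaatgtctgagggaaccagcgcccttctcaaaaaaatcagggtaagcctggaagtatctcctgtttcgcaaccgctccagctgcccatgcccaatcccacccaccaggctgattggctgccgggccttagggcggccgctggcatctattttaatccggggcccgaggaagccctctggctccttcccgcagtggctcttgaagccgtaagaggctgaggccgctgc
The antioxidant core matched at position 12 after the start in Abca8b, at position -25 in Abcc4 and at position 27 in Abcb1a, on the reverse strand in each, while the aryl hydrocarbon receptor core matched at position -101 of Abcc4. Another RefSeq window of Abcc4, not printed here, held the antioxidant core at position -23 on the forward strand. The windows of Abce1, which has the largest rise, and of Abca8a, the neighbour of Abca8b, held no match and are not printed. Windows were at hand for 38 of the 48 genes, 45 windows in all. The antioxidant core stood in 7 of these (15.6%), which belong to Abca8b, Abcb1a, Abcc2, Abcc4 and Abcc10, beside 12.4% of all 32851 promoter windows. Of these 5 genes, 2 were lower, 1 was higher and 2 did not pass the test, beside 35.4% of the 48 ABC genes called. Among the called genes with a window, 3 of 15 held the antioxidant core, in 4 of 19 windows (21.1%). Whether this core goes with a call was not tested. The core can hold the AP-1 site TGACTCA when its free bases read TCA. The aryl hydrocarbon receptor core stood in 1 window (2.22%, beside 5.07%) and the sterol regulatory element TCACNCCAC in 1, that of Abca3 (2.22%, beside 1.24%). A match is a description of the letters, not of binding.

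Of the 16 members of subfamily A, the largest of the subfamilies, 6 were lower and 2 were higher (50% called, beside 24% of all genes). Over all genes, 11.6% were lower. Abca8b, a relative of human ABCA8, which has been tied to cholesterol efflux, fell furthest of all 48 genes. It read 6.56, 6.78 and 6.98 in shPARP2 cells, against 8.86, 8.87 and 8.82 in scPARP2 cells. On the log2 scale the gene changed by -2.07 ± 0.11 (SE, limma adjusted p = 0.000182), which leaves 23.8% of the scPARP2 signal. Abca8a, the other mouse relative of ABCA8, read 6.07, 5.94 and 5.80 in shPARP2 cells and 7.18, 7.35 and 7.27 in scPARP2 cells. The change was -1.33 ± 0.09 in log2 units (SE, limma adjusted p = 0.000393). All 3 shPARP2 arrays lay below every scPARP2 array for both genes. Abca9, another member of this subfamily, read 5.81, 5.74 and 6.02 in shPARP2 cells and 6.22, 6.49 and 6.41 in scPARP2 cells. Its log2 fold change was -0.52 (adjusted p = 0.019 from limma). Its groups stood apart by little, and the call was lost without shPARP2 replicate 1 (adjusted p = 0.0655) and without scPARP2 replicate 2 (0.0764) or replicate 3 (0.0792). The means of Abca8a and Abca9 over the 6 arrays, which the falls lower too, lay in the dim range (39.5th and 29.5th percentile).

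Abca1, which loads cellular cholesterol and phospholipid onto apolipoprotein A-I, was lower in shPARP2 cells. It read 6.70, 6.70 and 6.57 in shPARP2 cells, against 7.32, 7.19 and 7.29 in scPARP2 cells, with no overlap. The fit in limma gave a log2 fold change of -0.61 ± 0.07 (SE, adjusted p = 0.00262), a level of 65.5%. The mean of Abca1 over the 6 arrays lay at the 47th percentile, not far above the dim range. Abcg1, which passes cholesterol on to high-density lipoprotein, read 7.59, 7.54 and 7.72 in shPARP2 cells and 7.51, 7.64 and 7.65 in scPARP2 cells. The arrays of the lines were intermixed, with a log2 fold change of 0.02 (95% confidence interval -0.18 to 0.21, adjusted p = 0.931 from limma). Whether the changes of Abca1 and Abcg1 differ was not tested. Abca12, the lipid transporter of keratinocyte lamellar granules, read 6.29, 6.08 and 6.32 in shPARP2 cells and 7.00, 6.97 and 6.97 in scPARP2 cells. It fell by 0.75 ± 0.08 in log2 units (SE, limma adjusted p = 0.00185), and its mean over the 6 arrays, which this fall lowers, lay at the 39.6th percentile. Abca7, a phospholipid transporter tied to phagocytosis, read 9.76, 9.84 and 9.73 in shPARP2 cells and 10.06, 10.02 and 9.99 in scPARP2 cells, which gives a log2 fold change of -0.24 (adjusted p = 0.0465 from limma). This was the weakest of the 17 calls. It was lost after centring (adjusted p = 0.145), with the replicate block (0.117), and without shPARP2 replicate 1 (0.113), shPARP2 replicate 3 (0.082), or scPARP2 replicate 1, 2 or 3 (0.177, 0.156 and 0.136).

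The higher members of subfamily A were Abca4 and Abca5. Abca4, the retinoid and phospholipid transporter of photoreceptors, read 7.75, 7.72 and 8.16 in shPARP2 cells, against 7.04, 7.15 and 7.18 in scPARP2 cells. The fitted log2 difference was 0.75 ± 0.13 (SE, limma adjusted p = 0.00999), with shPARP2 replicate 3 the highest array. Abca5, a transporter of lysosomes and late endosomes, read 9.42, 9.63 and 9.65 in shPARP2 cells and 9.10, 9.26 and 9.23 in scPARP2 cells, a log2 fold change of 0.37 (adjusted p = 0.0332 from limma). The lines did not overlap, but the call of Abca5 was lost without shPARP2 replicate 2 or 3 (adjusted p = 0.07 and 0.0764) and without scPARP2 replicate 1, 2 or 3 (0.125, 0.0813 and 0.101). Of the 8 members that did not pass the test, Abca6, Abca13, Abca14, Abca15, Abca16 and Abca17 were dim. Abca2, which acts in endosomes and lysosomes, and Abca3, which packs surfactant lipid in the lung, were brighter and had log2 fold changes of -0.03 and -0.14 (adjusted p = 0.833 and 0.405 from limma).

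**Figure D2:**
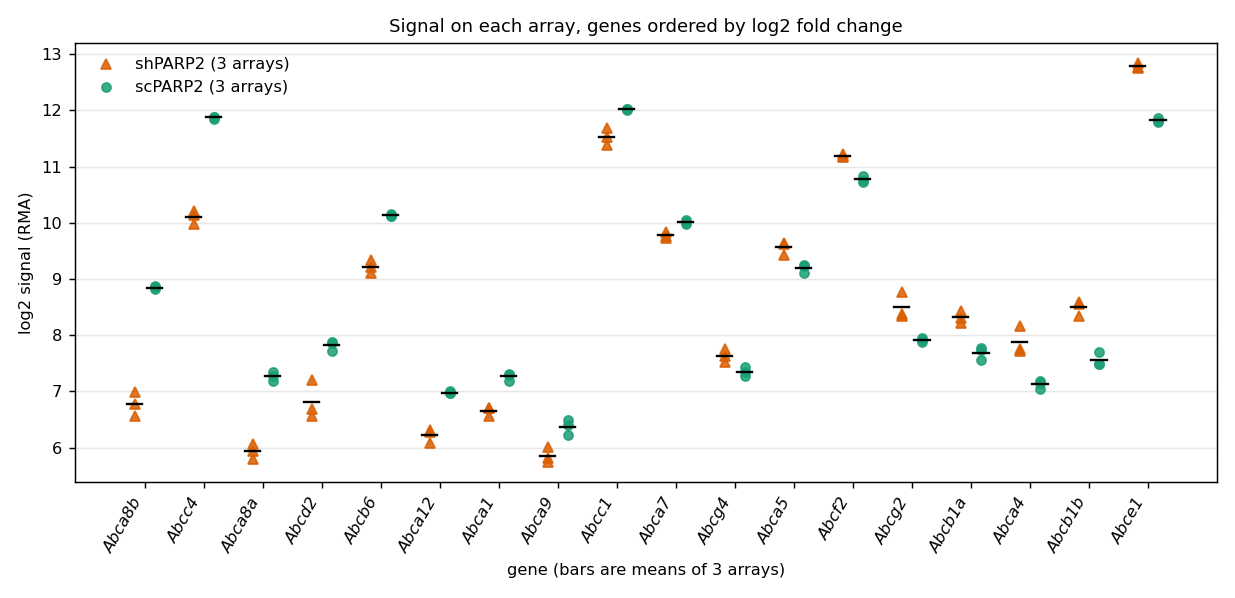
Log2 RMA signal (vertical axis) on each array for the 17 ABC genes past the test and Abcg4 (adjusted p = 0.0605), in order of log2 fold change. Triangles are the 3 shPARP2 and circles the 3 scPARP2 arrays, and bars are means; for each of the 18 genes all shPARP2 arrays lie on 1 side of the scPARP2 arrays.

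ABC genes that lie next to each other on a chromosome did not all move alike. Abca8b, Abca8a, Abca9, Abca6 and Abca5 follow each other on chromosome 11 in this order in the RefSeq gene table. Their log2 fold changes were -2.07, -1.33, -0.52, 0.06 and 0.37 along the chromosome, so that the run begins with 3 lower genes and ends with a higher one. Abca6 was dim (15th percentile). On chromosome 5, Abcb1a and Abcb1b rose (0.63 and 0.94), and the next gene, Abcb4, had a log2 fold change of -0.16 (95% confidence interval -0.35 to 0.03, adjusted p = 0.247 from limma) at the 36th percentile. In the other adjacent sets, Abca14 with Abca15 and Abca16, Abca17 with Abca3, and Abcg5 with Abcg8, none of the 7 genes passed the test. Neighbours of a run are close relatives in sequence, and cross-hybridization between their probe sets was not tested.

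**Figure D3:**
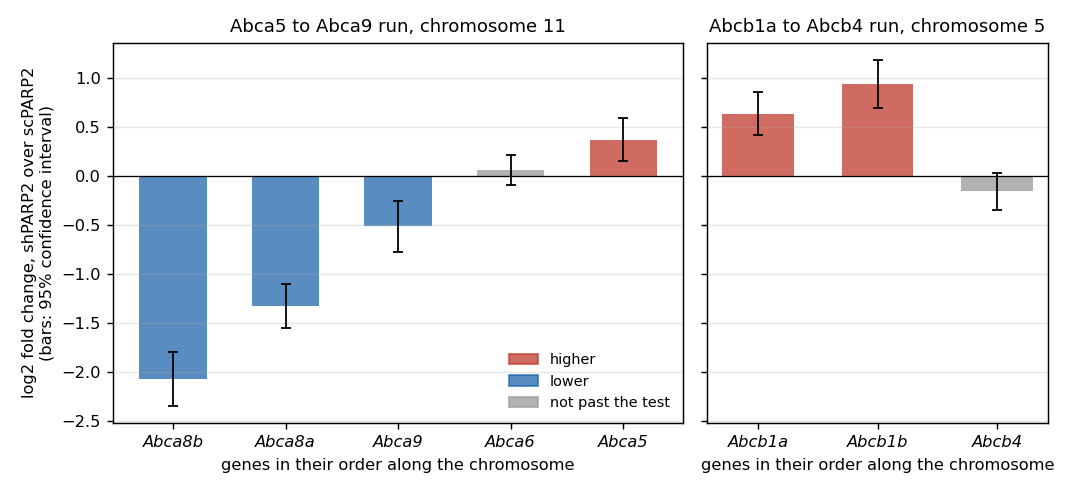
Log2 fold change between shPARP2 and scPARP2 cells (vertical axis) of ABC genes in their order along chromosomes 11 (left) and 5 (right). Bars are fitted differences with 95% confidence intervals, blue for lower, red for higher and grey for genes not past the test; on chromosome 11 the values run from -2.07 at Abca8b to 0.37 at Abca5.

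The drug pumps moved in both directions in shPARP2 cells: both genes of P-glycoprotein and Abcg2 were higher, and Abcc1 and Abcc4 were lower. Abcb1a and Abcb1b encode P-glycoprotein, which expels hydrophobic drugs, and share the role of the single human gene ABCB1. Abcb1b read 8.34, 8.59 and 8.56 in shPARP2 cells, against 7.49, 7.70 and 7.48 in scPARP2 cells. On the log2 scale the gene changed by 0.94 ± 0.10 (SE, limma adjusted p = 0.00179), a 1.92-fold higher signal. Abcb1a read 8.31, 8.22 and 8.43 in shPARP2 cells and 7.55, 7.78 and 7.73 in scPARP2 cells, with a change of 0.63 ± 0.09 in log2 units (SE, limma adjusted p = 0.00519). Every shPARP2 array lay above every scPARP2 array for both genes. The pair is closely similar in sequence, and how much each probe set reads of the other transcript was not tested. Abcg2, the breast cancer resistance protein, which exports drugs, urate and porphyrins, read 8.34, 8.78 and 8.38 in shPARP2 cells and 7.95, 7.92 and 7.87 in scPARP2 cells. Its log2 fold change of 0.58 (SE 0.13, limma adjusted p = 0.022) was drawn from arrays among which shPARP2 replicate 2 stood highest, and the call was lost without scPARP2 replicate 1, 2 or 3 (adjusted p = 0.0708, 0.0754 and 0.0849).

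In subfamily C, 2 of 10 members fell and none rose (20% called, beside 24% of all genes). Abcc4 (MRP4), which exports cyclic nucleotides, urate and prostanoids, read 9.98, 10.13 and 10.21 in shPARP2 cells, against 11.88, 11.85 and 11.89 in scPARP2 cells. The fit in limma gave a log2 fold change of -1.77 ± 0.08 (SE, adjusted p = 8.75e-05), the smallest p of the family, and 29.3% of the signal was left. The scPARP2 arrays nearly coincided, and the shPARP2 arrays all lay far below them. Abcc1 (MRP1), which exports glutathione conjugates such as leukotriene C4, read 11.53, 11.38 and 11.68 in shPARP2 cells and 12.03, 12.03 and 12.0015 in scPARP2 cells. It fell by 0.49 ± 0.09 in log2 units (SE, limma adjusted p = 0.0116) without overlap, and the adjusted p was 0.0531, 0.0533 and 0.0501 without scPARP2 replicate 1, 2 or 3. The other 8 members had log2 fold changes between -0.14 and 0.06. Among them, Abcc5, an exporter of cyclic nucleotides and glutamate conjugates, and Abcc10 (MRP7) read 0.03 and -0.09 (adjusted p = 0.861 and 0.504 from limma). Abcc8 and Abcc9, the sulfonylurea receptors that gate ATP-sensitive potassium channels, had log2 fold changes of -0.14 and 0.05 (adjusted p = 0.246 and 0.712 from limma). Abcc8 read 7.23, 7.08 and 7.19 in shPARP2 cells, each below the 7.28, 7.33 and 7.30 in scPARP2 cells. Abcc9, the form of most muscle, read 6.78, 6.64 and 6.78 in shPARP2 cells and 6.64, 6.68 and 6.73 in scPARP2 cells, and its lines overlapped. Abcc2 and Abcc3, conjugate exporters of the liver, were dim.

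Of 14 measured genes that sense xenobiotics or make the conjugates these pumps export, 28.6% were called. This stands beside 24% of all genes and 34.1% of those above the dim range, which held 11 of the 14. The called genes were 4 lower and none higher, beside 11.6% of all genes lower. These were Nqo1 (log2 fold change -3.68, adjusted p = 2.44e-05), the glutathione transferases Gstm1 (-2.25, adjusted p = 0.000447) and Gstp1 (-0.58, adjusted p = 0.00143), and Keap1, the inhibitor of NRF2 (-0.36, adjusted p = 0.0154, all from limma). Nfe2l2, which encodes NRF2, had a log2 fold change of -0.09 (adjusted p = 0.47 from limma). By RT-qPCR, the study found no difference between the lines in the mRNA of KEAP1 or of NRF2. The median over this list was -0.17, beside -0.02 over all genes.

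Abcb6 was the member of subfamily B that fell. This protein, assigned to porphyrin transport and found in the outer mitochondrial membrane and in endosomes and lysosomes, read 9.11, 9.33 and 9.22 in shPARP2 cells, against 10.13, 10.15 and 10.13 in scPARP2 cells. The fitted log2 difference was -0.92 ± 0.08 (SE, limma adjusted p = 0.000726), which leaves 53.0% of the signal with no overlap between the lines. Abcb10, the inner membrane transporter tied to heme synthesis, read 7.87, 8.11 and 7.84 in shPARP2 cells and 7.90, 7.78 and 7.68 in scPARP2 cells. The values overlapped, and its log2 fold change was 0.16 (95% confidence interval -0.09 to 0.40, adjusted p = 0.383 from limma). Abcb8, also of the inner mitochondrial membrane, and Abcb9, a peptide transporter of lysosomes, had log2 fold changes of -0.05 and 0.19 (adjusted p = 0.769 and 0.251 from limma). Abcb11, the bile salt pump, was dim, and so were both probe sets of Abcb5, a relative of the drug pumps, with log2 fold changes of -0.04 and 0.01 (adjusted p = 0.912 and 0.963 from limma). Abcb5 is the only member with more than 1 probe set. Of 14 measured genes of heme and iron-sulfur cluster synthesis, 4 were higher and 1 was lower (35.7% called). All 14 were above the dim range, where 34.1% of genes were called, so this share is near the background. Cpox (1.34, adjusted p = 0.000966) and Urod (-0.51, adjusted p = 0.00451), enzymes of heme synthesis that act in turn, moved in opposite directions, and the glycine carrier Slc25a38 (0.57, adjusted p = 0.0158) and the iron sensor Aco1 (0.50, adjusted p = 0.00256, all log2 fold changes from limma) were higher.

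Abcd2 was the lower gene of subfamily D. It carries very long-chain fatty acyl-CoA into peroxisomes and read 6.69, 7.20 and 6.57 in shPARP2 cells, against 7.72, 7.88 and 7.87 in scPARP2 cells. On the log2 scale the gene changed by -1.003 ± 0.17 (SE, limma adjusted p = 0.00867), which leaves 49.9% of the scPARP2 signal. The shPARP2 arrays were spread widely, with replicate 2 nearest to the scPARP2 arrays. Abcd3, the peroxisomal transporter of branched-chain acyl-CoA, read 9.04, 9.22 and 9.14 in shPARP2 cells and 9.14, 9.21 and 9.21 in scPARP2 cells. The lines overlapped (log2 fold change -0.05, 95% confidence interval -0.23 to 0.12, adjusted p = 0.698 from limma). Abcd4, which helps to release cobalamin from lysosomes, had a log2 fold change of 0.03 (adjusted p = 0.9 from limma). Of 14 measured partner genes of peroxisomes, 3 were higher and 3 were lower (42.9% called, beside 24% of all genes and 34.1% of those above the dim range, which held 11 of the 14). The lower ones included Pex11a, which drives peroxisome division (-1.44, adjusted p = 0.000609), and Pex19, the import receptor for peroxisomal membrane proteins (-0.55, adjusted p = 0.0263). Pex14, part of the import pore (0.57, adjusted p = 0.00162), and Acsl4, a fatty acyl-CoA ligase (0.38, adjusted p = 0.0105), were higher (log2 fold changes from limma).

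The subfamilies without a membrane span held 2 higher genes among 4, beside 12.4% of all genes, and all 4 were above the dim range, where 34.1% of genes were called in either direction. Abce1, which splits ribosomes after termination so that they can be used again, read 12.75, 12.77 and 12.85 in shPARP2 cells, against 11.81, 11.86 and 11.79 in scPARP2 cells. The fit in limma gave a log2 fold change of 0.97 ± 0.06 (SE, adjusted p = 0.000332), the largest rise of the 48 genes at 1.95-fold. Abcf2, a ribosome-associated ATPase, read 11.18, 11.18 and 11.22 in shPARP2 cells and 10.72, 10.84 and 10.76 in scPARP2 cells, with a change of 0.42 ± 0.06 in log2 units (SE, limma adjusted p = 0.00631). The lines were clearly apart for both genes, and the spread within each line was small. Abcf3 read 9.45, 9.68 and 9.39 in shPARP2 cells and 9.24, 9.35 and 9.30 in scPARP2 cells. Each shPARP2 array lay above the scPARP2 arrays, yet the log2 fold change of 0.21 did not pass the test (adjusted p = 0.199 from limma). Abcf1, which acts with eIF2 in initiation, read 10.02, 10.16 and 9.76 in shPARP2 cells and 10.09, 10.19 and 10.09 in scPARP2 cells, with a log2 fold change of -0.14 (95% confidence interval -0.41 to 0.13, adjusted p = 0.485 from limma). Of 11 measured genes of ribosome recycling and initiation, 6 were higher and 1 was lower (63.6% called), with a median log2 fold change of 0.29, beside -0.02 over all genes. All 11 were above the dim range, where 34.1% of genes were called, and 12.4% of all genes were higher. The higher ones included the release factor Etf1 (0.64, adjusted p = 0.00113), Eif2s2 (0.55, adjusted p = 0.00351) and Eif2b1 (0.51, adjusted p = 0.00436), and the lower one was the stress kinase Eif2ak4 (-0.74, adjusted p = 0.00452, all log2 fold changes from limma). Pelo, which works with Abce1 on stalled ribosomes, had a log2 fold change of 0.05.

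In subfamily G, Abcg2 was the only one of 6 members past the test. Abcg4, a relative of Abcg1 that exports sterols in brain, read 7.64, 7.53 and 7.75 in shPARP2 cells and 7.27, 7.43 and 7.34 in scPARP2 cells. The lines did not overlap, and its log2 fold change of 0.29 (SE 0.08) missed the threshold (adjusted p = 0.0605 from limma). It passed in 7 alternative fits, among them quantile normalization (adjusted p = 0.0328), omission of dim probe sets (0.0275) and omission of shPARP2 replicate 2 (0.0361). In the other 7 it did not pass. These included the replicate block (adjusted p = 0.133) and the fits without scPARP2 replicate 1, 2 or 3 (0.203, 0.103 and 0.185). Abcg3, Abcg5 and Abcg8 were dim, with log2 fold changes between -0.10 and 0.03. Of 15 measured partners of cholesterol efflux and sterol sensing, 4 were higher and 5 were lower (60% called), with a median log2 fold change of 0.02. All 15 were above the dim range, where 34.1% of genes were called, beside 24% of all genes. Mylip, which targets the LDL receptor for degradation and is a target of the liver X receptor, as Abca1 is, fell by 1.03 on the log2 scale (adjusted p = 0.000262). Apoe, a lipid acceptor, fell by 0.77 (adjusted p = 0.0117). The oxysterol-binding protein Osbp (0.74, adjusted p = 0.00119) and the liver X receptor target Lpcat3 (0.54, adjusted p = 0.0252) were higher, and so was Srebf1 (0.38, adjusted p = 0.00803). Nr1h3, which encodes a liver X receptor, read 0.01 (adjusted p = 0.95). The retinoid X receptor genes Rxra (-0.50, adjusted p = 0.00314) and Rxrb (-0.44, adjusted p = 0.00869) were lower (log2 fold changes from limma).

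**Figure D4:**
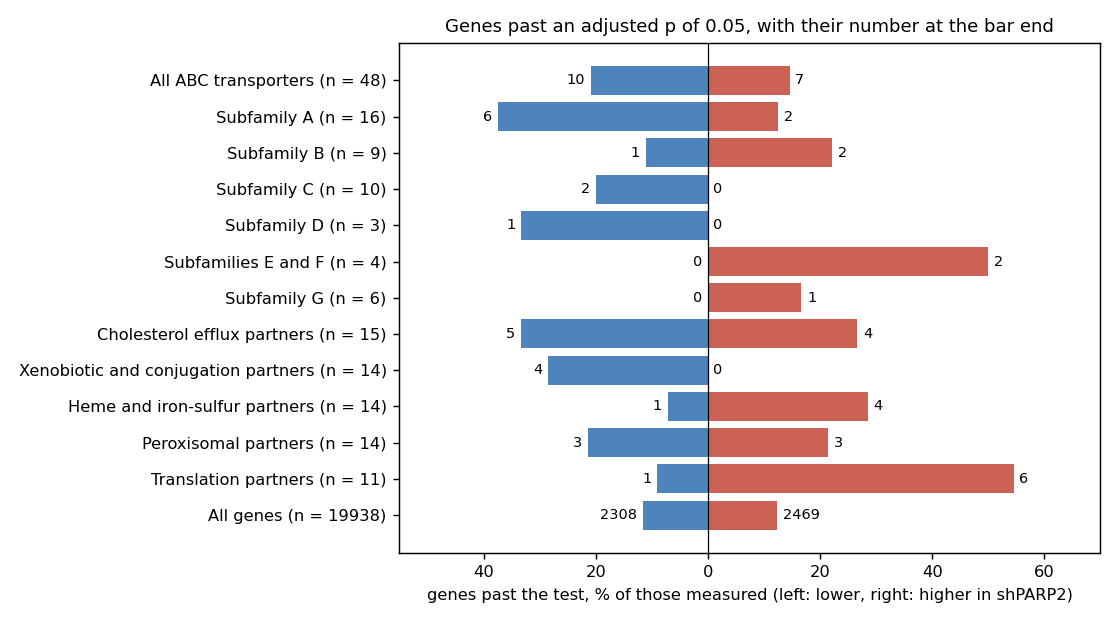
Share of the measured genes past an adjusted p of 0.05 (horizontal axis, %), lower in shPARP2 cells to the left and higher to the right, for the ABC genes, their subfamilies, the partner lists and all genes. Numbers at the bars are genes; the ABC genes hold 10 lower and 7 higher genes of 48, and the translation partners 1 lower and 6 higher of 11.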

How the data were processed

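Total RNA of 6 C2C12 samples (3 shPARP2 and 3 scPARP2) was hybridized to Affymetrix Mouse Gene 1.0 ST arrays. The deposited table holds log2 values of 35556 probe sets, made by the authors with RMA as named in the submitters' notes on processing. The software behind it is not given in the sources used here. RMA can compress differences of dim probe sets. Arrays give no read depth, and 3 arrays per line limit the precision. Of the probe sets, 21789 name 1 gene in the platform annotation, 1621 name several and 12146 are not named here.

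The lines were compared on the deposited values in R 4.3.3 with the package limma 3.58.1 (linear model and empirical Bayes, no covariate, two-sided, Benjamini-Hochberg over all probe sets), as in the study's methods, at an adjusted p under 0.05, which the study does not state. Standard errors are moderated. The calculation was tested on simulated data. Values in every array are given for members under an adjusted p of 0.10 and, for comparison within their roles, for Abcg1, Abcb10, Abcd3, Abcc8, Abcc9, Abcf1 and Abcf3. From each partner list up to 4 genes with the largest change past the test are named. The genes Nfe2l2, Nr1h3, Pelo, Rxra, Rxrb and Srebf1 were chosen after their values were seen. The ABC genes, the lists and the motifs were chosen with earlier results of these data known. Motifs were searched in RefSeq promoter windows of GRCm38.p6, and figures were drawn with matplotlib 3.10.9. The alternatives were the replicate number as a block, quantile normalization, centring on array medians, leaving out dim probe sets, single-gene probe sets only, a trended robust variance, array weights, averaging the probe sets of a gene, other thresholds and leaving out each array.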

Additional observations from a re-analysis of the deposited data

How the results depend on the processing

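Of the 17 calls, 12 held in every alternative fit that kept the gene and none of the 17 changed sign. Leaving out dim probe sets removed Abca8a, Abca9 and Abca12 from the fit. With a minimum of 1.5-fold added to the test, the ABC calls numbered 4 higher and 7 lower. Without any one array, the higher genes numbered 5 to 7 and the lower genes 7 to 10, while the share of all genes called ran from 13.6% to 25.9%. The deviations of same-numbered arrays from the means of their lines had correlations of -0.05, 0.09 and 0.01 over all probe sets. The labels link these arrays only by number and do not say whether they shared a batch. The replicate block gave 7 higher and 9 lower genes, with the call of Abca7 lost (adjusted p = 0.117), and it changed no other call of an ABC gene. The log2 fold change of Parp2 ran from -1.15 to -1.01 over its 14 alternatives. Abcg4 was the 1 uncalled gene that was called in some alternatives. At an unadjusted p under 0.05, 18 ABC genes passed. Signal over background limits the 18 dim genes, where a missed call does not show that a gene is unchanged. The cut does not mark where background ends. Of the 5 adipocyte markers 3 were dim, but Plin1 and Cidec lay at the 49.1st and 51.4th percentile. The same limit can therefore hold for members not far above the cut, such as Abcc9, Abcb9 and Abca1 (41.8th, 46.5th and 47th percentile).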

Other observations

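Family members named by other symbols (Tap1, Tap2 and Cftr), and genes outside the family that were listed with them, gave further values. Tap1, which with Tap2 forms the peptide transporter of antigen presentation, averaged 7.77 ± 0.14 in shPARP2 cells and 7.33 ± 0.02 in scPARP2 cells (SD, n = 3 each), a log2 fold change of 0.44 (adjusted p = 0.0164 from limma). Tap2 averaged 8.78 ± 0.04 in shPARP2 and 8.57 ± 0.12 in scPARP2 cells (SD, n = 3 each), with a log2 fold change of 0.21 (adjusted p = 0.142 from limma). Tapbp, the chaperone of this transporter, had a log2 fold change of -0.45 (adjusted p = 0.0799 from limma). Cftr, the chloride channel of subfamily C, was dim (12.5th percentile). Kcnj8 and Kcnj11, pore subunits of the ATP-sensitive potassium channels that sulfonylurea receptors gate, had log2 fold changes of 0.10 and -0.15 (adjusted p = 0.452 and 0.511 from limma). Psap, the lysosomal precursor of the saposins, was lower (-0.48 on the log2 scale, adjusted p = 0.00348 from limma).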
